A study of Mus musculus with 3 samples.

Results

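Mitochondrial ribosomal protein genes were examined in 3 populations of myeloid cells from the colon. The members were all gene symbols that begin with Mrpl or Mrps followed by a digit, leaving out pseudogene symbols containing -ps, and they were chosen by name alone. There were 77 such genes among 24346 symbols. Of these, 50 encode proteins of the large subunit and 26 encode proteins of the small subunit. The remaining member, Mrps36, keeps a ribosomal name but encodes an adaptor of the 2-oxoglutarate dehydrogenase complex and is not a stable subunit. Mrps30 and Mrps18a carry small-subunit names and were counted with the large subunit, where their proteins sit.

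RNA was sequenced from dendritic cells (DC) without CD64, macrophages with CD64 and a population gated as Gr-1+ CD11b+, labelled as neutrophils and monocytes and called Gr-1+ cells below. CD64 is a high-affinity IgG receptor, CD11b is an integrin of myeloid cells, and Gr-1 is an epitope shared by Ly6 proteins of granulocytes and monocytes. All cells came from the colon of healthy, untreated BALB/c mice, an inbred wild-type strain, so the groups differ by cell type and not by genotype or treatment. Each population had 1 library, which leaves no replicate, no spread between samples and no test, and every difference below compares these 3 libraries. The sources used here give neither the age of the mice nor whether cells of several mice were pooled.

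Mitochondria carry their own ribosome, which makes the few respiratory chain proteins still encoded in mitochondrial DNA. Its RNA is transcribed inside the organelle, while all of its proteins are encoded in the nucleus, made in the cytosol and imported. The small subunit holds the messenger RNA and reads its codons, and the large subunit joins the amino acids. Some of the proteins have bacterial counterparts and others are found only in mitochondria. Among myeloid cells, neutrophils are known for a sparse mitochondrial network and for living mainly on glycolysis.

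The promoter sequences of 3 members are shown because their values are described below. Mrpl33 ran against the other members, and Mrpl22, picked for its motifs, followed the common order. Mrpl17 had nearly the same value in all libraries. Its value in Gr-1+ cells lay under the silent-gene level defined below, so it is not read as equal expression. Each line holds the 250 bases before the gene's RefSeq start (GRCm38.p6), 5′ to 3′ on the gene's strand. Capitals mark CCGGAAG, a motif of ETS factors such as GABP, and GCGCATGC, a motif of NRF1, both being regulators known from genes of mitochondrial proteins.
Mrpl33, chr5:31613701-31613950, plus strand: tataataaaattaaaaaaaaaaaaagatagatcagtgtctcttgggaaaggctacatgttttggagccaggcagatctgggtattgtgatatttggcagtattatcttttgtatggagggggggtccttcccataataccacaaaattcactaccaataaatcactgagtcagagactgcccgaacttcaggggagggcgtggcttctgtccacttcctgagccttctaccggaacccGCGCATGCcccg
Mrpl17, chr7:105811088-105811337, minus strand: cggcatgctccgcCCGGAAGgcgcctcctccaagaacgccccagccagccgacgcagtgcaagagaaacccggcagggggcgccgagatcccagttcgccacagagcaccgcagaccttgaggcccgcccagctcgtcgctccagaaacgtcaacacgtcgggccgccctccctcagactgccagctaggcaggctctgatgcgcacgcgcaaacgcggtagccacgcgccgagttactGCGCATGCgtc
Mrpl22, chr11:58171414-58171663, plus strand: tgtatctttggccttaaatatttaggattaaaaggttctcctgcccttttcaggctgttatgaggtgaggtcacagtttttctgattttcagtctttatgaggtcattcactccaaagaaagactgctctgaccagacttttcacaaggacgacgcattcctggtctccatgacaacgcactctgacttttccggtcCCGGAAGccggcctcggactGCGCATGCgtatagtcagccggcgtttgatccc
Counting back from the start, the NRF1 motif of Mrpl33 began at -12, and a match to the ETS motif began at -3 and ran past the end of the printed stretch. In Mrpl17 the ETS motif began at -237 and the NRF1 motif at -11. In Mrpl22 they began at -53 and -33.

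The libraries differed in depth and in background. Values are FPKM, a fragment count per transcript length and library size. From the steps between low FPKM values, the DC library rested on 3.58 times and the macrophage library on 2.73 times as many fragments as the Gr-1+ library. A level of 10 FPKM on a transcript of 1000 nt thus rested on about 71, 53 and 20 fragments. Its exact 95% Poisson interval ran from 7.81 to 12.6 FPKM in DC, from 7.49 to 13.1 in macrophages and from 6.11 to 15.4 in Gr-1+ cells, which covers counting error only. Over 1426 olfactory and vomeronasal receptor genes, which these cells should not use, the 95th percentile was 0.610, 3.22 and 9.65 FPKM for DC, macrophages and Gr-1+ cells. This is called the silent-gene level. Of the 77 members, 77 (DC), 76 (macrophages) and 47 (Gr-1+ cells) lay above it.

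Markers of other cells also moved with the populations. All 9 B and plasma cell markers were highest in DC, where they summed to 22864 FPKM against 1199 in macrophages and 444 in Gr-1+ cells. All 8 neutrophil markers were highest in Gr-1+ cells, with sums of 1683, 4350 and 168990 FPKM for DC, macrophages and Gr-1+ cells. The 10 macrophage markers summed to 3280, 28051 and 2490 FPKM in the same order. The 7 colon epithelium markers were all highest in Gr-1+ cells, with sums of 585, 349 and 1175 FPKM. The 8 dendritic cell markers summed to 1313, 281 and 72.7 FPKM, with Ccr7 giving 1004 FPKM of the DC sum. Among them Itgax was highest in macrophages (19.7, 47 and 16.4 FPKM), and Clec9a (2.81, 1.88 and 0.87 FPKM) and Xcr1 (2.83, 3.30 and 4.18 FPKM), which define cross-presenting DC, were low in every library. The 5 monocyte markers summed to 947, 1640 and 560 FPKM, of which Ly6c2 gave 878, 782 and 320 FPKM. Of these 5, Chil3 (28.8, 566 and 198 FPKM) and Vcan (1.32, 10.5 and 8.31 FPKM) were higher in Gr-1+ cells than in DC. Ly6c2, Ccr2 (27.6, 247 and 25.8 FPKM) and Fn1 (11.0, 34.4 and 7.98 FPKM) were lower in Gr-1+ cells than in DC. The 4 T cell markers summed to 67.4, 14.8 and 24.9 FPKM. No marker of these lists was listed at 0 in any library, and the part these other cells had in the ribosomal values was not tested.

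All 77 members reached 1 FPKM in at least 1 library, and 70 reached 10 FPKM. The median member was at 44.4 FPKM (DC), 34.1 (macrophages) and 12.7 (Gr-1+ cells). The share of the FPKM sum taken by the members was 0.643% (DC), 0.433% (macrophages) and 0.274% (Gr-1+ cells). The order DC, then macrophages, then Gr-1+ cells held for 63 of 77 members (81.8%), against 27.8% of the 17329 genes at 1 FPKM or more in any library and 43.1% of the 7087 genes at 10 FPKM or more. Gr-1+ cells had the lowest level for 76 of 77 members (98.7%), against 40.5% and 65.1% of those genes. Mrpl33 was the exception. Both counts depend on scaling: with libraries set to equal 75th percentiles, 21 members kept the order, against 12.9% of the 17329 genes and 20.3% of the 7087, and 59 were lowest in Gr-1+ cells, against 26.5% and 44.5%. With equal FPKM sums 76 members kept the order, against 34.1% of the 17329 genes and 54.0% of the 7087. With median ratios 66 members did, against 27.9% and 43.6%. With silent-gene background subtracted 64 did, against 35.7% and 45.8%. The order is called the common order below, for the deposited scale. In such bulk libraries, fewer cells that express a gene and less of its RNA per cell cannot be told apart.

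**Figure D1:**
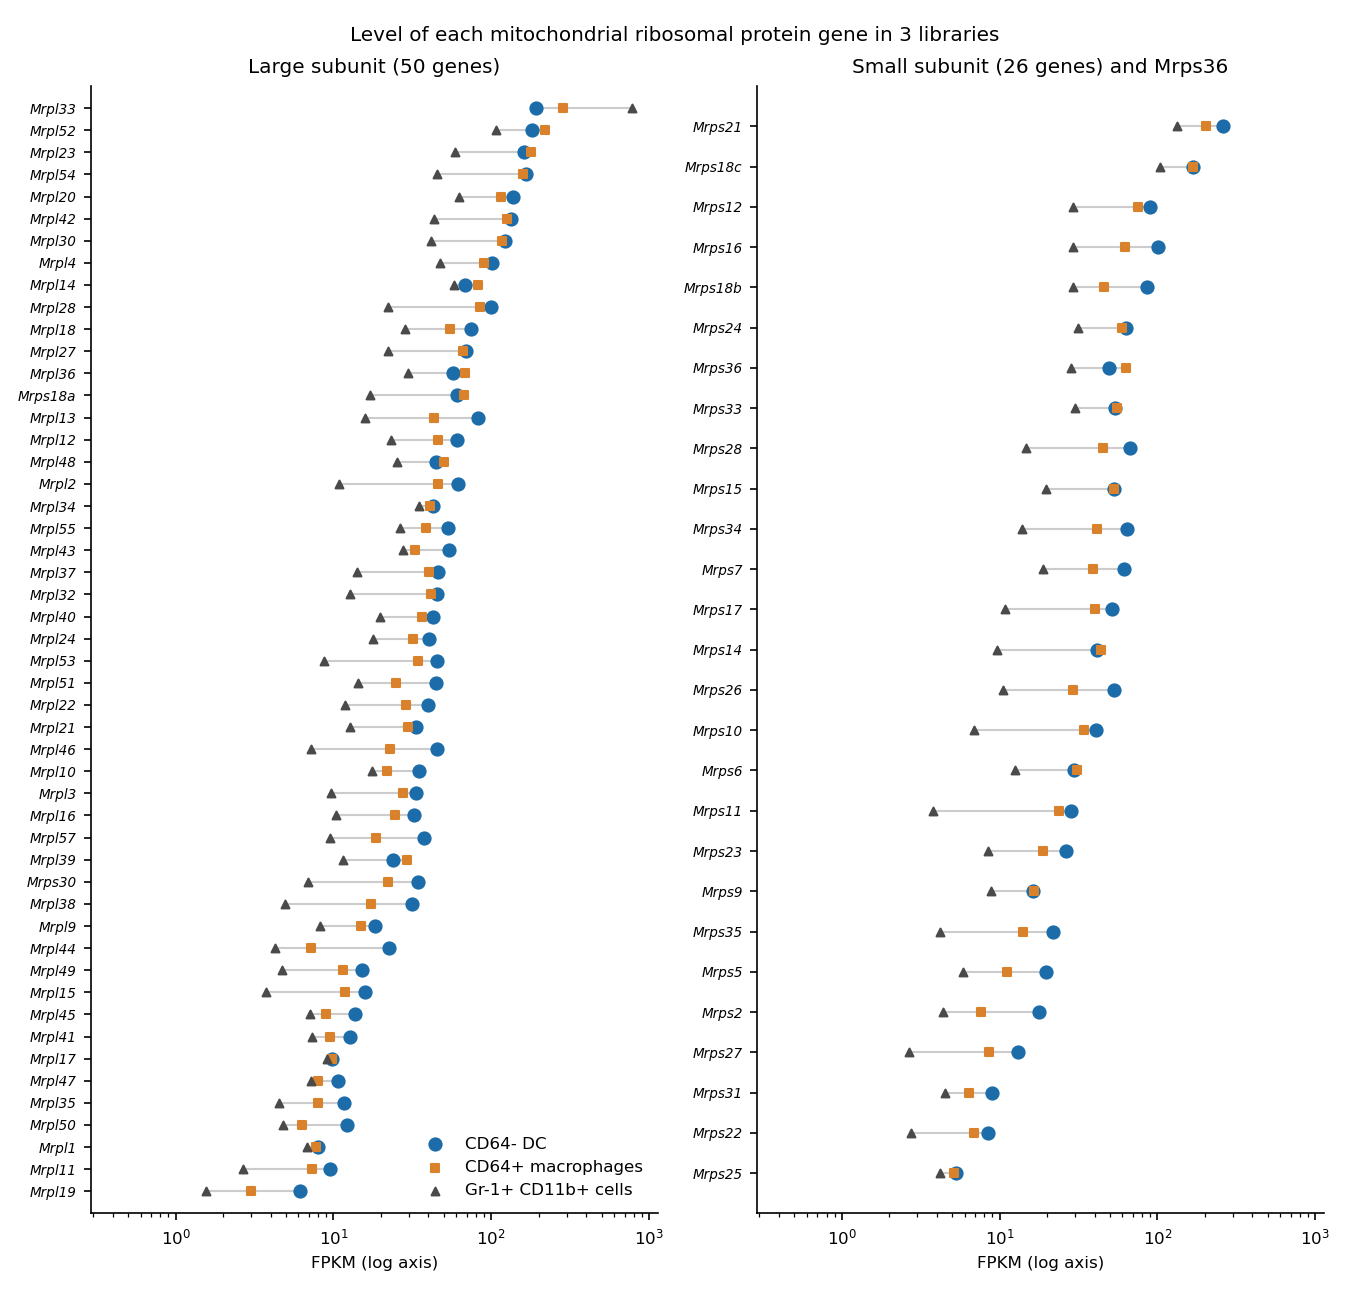
Level of each of the 77 genes in FPKM (log axis) in CD64- DC (circles), CD64+ macrophages (squares) and Gr-1+ cells (triangles), 1 library each, by subunit and sorted by mean level. On this deposited scale triangles lie to the left of both other symbols for every gene but Mrpl33, whose triangle stands alone at 779 FPKM.

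Of the 6 members with the highest mean level, 4 belong to the large subunit, Mrpl33 among them. All 6 have short RefSeq transcripts, of 418 to 692 nt, beside a median of 1226 nt over the members. The part of transcript length in these levels was not tested. Mrpl52, a protein found only in mitochondrial ribosomes, was at 181 FPKM (DC), 218 (macrophages) and 108 (Gr-1+ cells). Mrpl23, which has a bacterial counterpart at the mouth of the exit tunnel, was at 160, 179 and 59.0 FPKM for these libraries. Mrpl54, another protein specific to mitochondria, was at 166, 160 and 45.5 FPKM. In DC and macrophages these 3 genes were close in level, and all were lowest in Gr-1+ cells.

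In the small subunit, Mrps21 was the highest member of the DC library, at 260 FPKM, with 202 FPKM in macrophages and 133 in Gr-1+ cells. Mrps18c was at 167, 168 and 104 FPKM. It is 1 of 3 paralogs of a single bacterial protein, and the other two were lower. Mrps18b, also a small-subunit protein, was at 85.9, 46.0 and 29.1 FPKM. Mrps18a, the paralog placed in the large subunit, was at 61.0, 67.5 and 17.0 FPKM. The paralogs thus kept the order c, b, a in DC and Gr-1+ cells, and in macrophages Mrps18a lay above Mrps18b.

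The lowest members were Mrpl19 (6.17, 3.01 and 1.56 FPKM for DC, macrophages and Gr-1+ cells), Mrps25 (5.31, 5.10 and 4.18), Mrps22 (8.47, 6.83 and 2.75), Mrps31 (9.0, 6.39 and 4.47), Mrpl11 (9.53, 7.26 and 2.66) and Mrpl1 (7.98, 7.70 and 6.82). In Gr-1+ cells all 6 lay under the silent-gene level, so these values are not read as expression there. Mrpl19 also lay under it in macrophages. Mrps25 shares 4590 bases of exon with Nr2c2, and Mrpl19 shares 1962 with Gcfc2, both on the opposite strand. The sources used here do not say that strand was kept, so reads from these stretches cannot be told apart.

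The first comparison asked how DC differ from macrophages. Differences are given as log2(FPKM + 1) in DC minus macrophages, a scale that understates the differences of low genes. The median over the 77 members was 0.35, with quartiles of 0.06 and 0.56, and 63 members were higher in DC and 14 in macrophages. Over all genes compared the median was -0.05, and over the genes at 10 FPKM or more it was 0.13. The direction depended on scaling: with libraries set to equal 75th percentiles the members' median was -0.10, and 52 of 77 were lower in DC. Relative to the genes at 10 FPKM or more, the members' median stayed higher by 0.20 to 0.22 under the 4 scalings tried, and by 0.12 with a pseudocount of 10. Across the 77 members the difference rose with transcript length (Spearman rank correlation 0.38) and fell with mean level (-0.38). The part of length or level in the difference was not tested.

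A gene passed the size rule when log2 levels were at least 2 apart and the higher library had at least 10 FPKM. By this rule 0 of 77 members were higher in DC and 0 were lower. Of all genes compared, 1.53% passed the rule as higher in DC and 2.31% as lower. Among genes at 10 FPKM or more these shares were 3.75% and 5.66%. With a limit of 1 in place of 2, 2 members passed as higher in DC and 0 as lower, beside 5.59% and 5.69% of all genes compared. They were Mrpl44, a protein specific to mitochondria, at 22.6 FPKM in DC and 7.22 in macrophages (difference 1.52), and Mrps2, which has a bacterial counterpart, at 17.8 and 7.65 FPKM (1.12). Mrpl57 and Mrpl46 came next, with differences of 0.97 and 0.96.

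At the other end, Mrpl33 (difference -0.58), Mrps36 (-0.36), Mrpl39 (-0.29) and Mrpl52 (-0.27) were the members with the highest level in macrophages relative to DC. For Mrps36 the levels were 49.2 FPKM (DC), 63.5 (macrophages) and 28.3 (Gr-1+ cells). For Mrpl39 they were 23.8, 29.2 and 11.6 FPKM. These differences were small beside the range over the members, which ended at 1.52. Mrps17 (51.5 and 40.2 FPKM in DC and macrophages) and Mrpl11 lay nearest the middle of the members.

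The second comparison set Gr-1+ cells against DC. Of 77 members, 76 were lower in Gr-1+ cells and only Mrpl33 was higher; with equal 75th percentiles 63 were lower and 14 higher. The median log2 difference was -1.51, with quartiles of -1.81 and -0.96, beside 0.01 over all genes compared and -0.89 over the genes at 10 FPKM or more. The members' median minus that of the latter lay between -0.62 and -0.56 under the 4 scalings and with silent-gene background subtracted, and was -0.39 with a pseudocount of 10. Mrpl49 (15.3 FPKM in DC and 4.70 in Gr-1+ cells) and Mrpl11 lay nearest the members' median. Both lay under the silent-gene level in Gr-1+ cells. Over the 47 members above that level the median was -1.39.

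By the size rule 15 members were lower in Gr-1+ cells than in DC and 1 was higher. Of all genes compared, 6.28% passed as lower and 3.65% as higher, and of the genes at 10 FPKM or more 15.4% and 8.93% did. The 15 genes were 8 of 50 in the large subunit and 7 of 26 in the small subunit. Of these 15, 8 lay at or under the silent-gene level in Gr-1+ cells. Mrps28 passed with a difference of -2.11, while Mrps14, at -1.99, lay just short of the limit. With a limit of 1, 51 members were lower and 1 was higher, beside 18.6% and 6.03% of all genes compared. With equal FPKM sums 27 members passed as lower, beside 10.5% of all genes compared and 24.5% of those at 10 FPKM or more. With equal 75th percentiles 0 did, beside 1.63% and 3.98%.

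In the small subunit the difference was greatest for Mrps11, which has a bacterial counterpart, at 28.2 FPKM (DC), 23.9 (macrophages) and 3.80 (Gr-1+ cells) (-2.60). Mrps10, also with a bacterial counterpart, was at 40.6, 34.1 and 6.87 FPKM (-2.40). Mrps26, specific to mitochondria, was at 53.2, 29.2 and 10.5 FPKM (-2.23). In each case the Gr-1+ value was far under both others, and only that of Mrps26 lay above the silent-gene level.

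In the large subunit, Mrpl46 was at 45.0 FPKM (DC), 22.7 (macrophages) and 7.26 (Gr-1+ cells) (-2.48 between Gr-1+ cells and DC). Mrpl38 was at 31.6, 17.3 and 4.94 FPKM (-2.45). Mrpl2, whose bacterial counterpart lies near the site of peptide bond formation, was at 62.0, 45.8 and 10.9 FPKM (-2.41). Mrpl38 and Mrpl46 are specific to mitochondria and lay under the silent-gene level in Gr-1+ cells, and Mrpl2 lay slightly above it. Mrpl46 and Mrps11 face away from each other on chromosome 7 (GRCm38, 78775236 to 78783531 on the minus strand and 78783119 to 78792989 on the plus strand) and share 173 bases of exon, so part of their reads cannot be told apart.

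Further members past the rule were Mrpl13 (82.1 FPKM in DC and 15.9 in Gr-1+ cells, -2.30) and Mrpl53 (45.1 and 8.75 FPKM, -2.24). Mrps30, which has a small-subunit name and sits in the large subunit, was at 34.1, 22.2 and 6.87 FPKM for DC, macrophages and Gr-1+ cells (-2.16). Mrpl53 and Mrps30 lay under the silent-gene level in Gr-1+ cells. Mrpl53, with a RefSeq transcript of 695 nt, shares 695 bases of exon with Gm42688 on the same strand. On the opposite strand Mrps30 shares 623 with B430218F22Rik and Mrpl13 shares 330 with Mtbp. Reads from these stretches cannot be told apart. Mrpl22, whose promoter is printed above, did not pass, at 39.6, 28.8 and 11.9 FPKM (-1.66).

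Some members were nearly level between Gr-1+ cells and DC. Mrpl17 was at 9.79 FPKM (DC), 9.79 (macrophages) and 9.04 (Gr-1+ cells) (-0.11), the last value being under the silent-gene level. Mrpl1 had a difference of -0.20. Mrpl14, a large-subunit protein with a bacterial counterpart, was at 68.0, 82.3 and 58.0 FPKM (-0.23), well above the silent-gene level in every library. Its 3 levels thus lay in a narrow range and, unlike those of most members, peaked in macrophages.

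**Figure D2:**
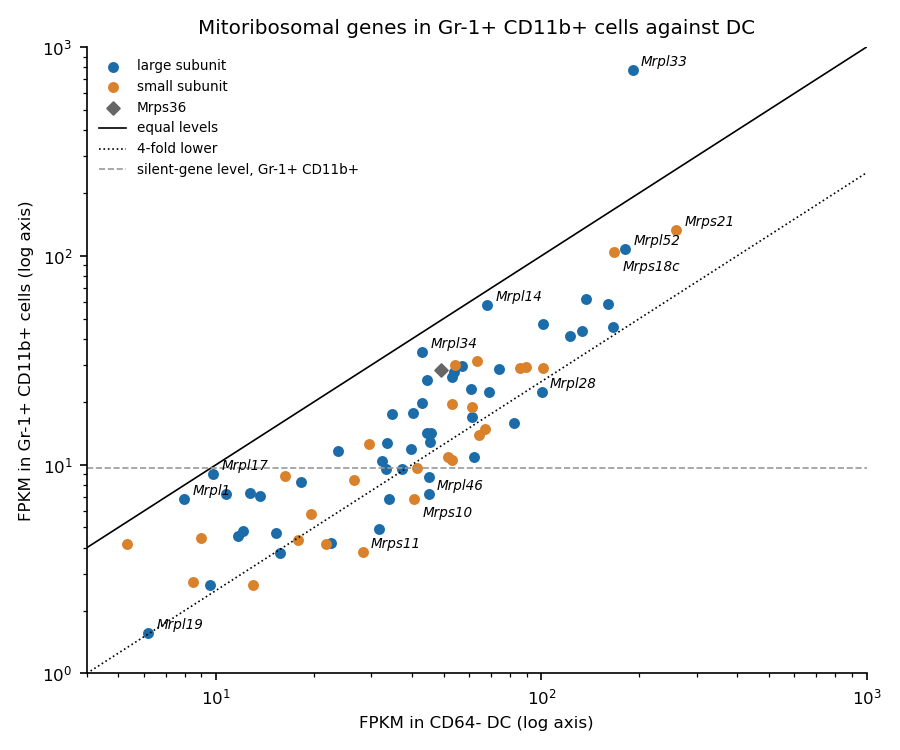
FPKM in Gr-1+ cells (vertical, log axis) against FPKM in CD64- DC (horizontal, log axis) for the 77 genes, 1 point per gene, colored by subunit. The solid line marks equal levels, the dotted line a level 4-fold lower, and the dashed line the silent-gene level of 9.65 FPKM; only Mrpl33 lies above the solid line, while with equal 75th percentiles 14 genes would.

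The third comparison set Gr-1+ cells against macrophages. Again 76 of 77 members were lower in Gr-1+ cells, and 66 with equal 75th percentiles. The median log2 difference was -1.06, with quartiles of -1.47 and -0.69, beside 0.10 over all genes compared and -0.75 over the genes at 10 FPKM or more. By the size rule 3 members were lower and 0 were higher, where 3.41% of all genes compared passed as lower and 1.41% as higher. Among genes at 10 FPKM or more, 8.34% passed as lower and 3.44% as higher. With a limit of 1, 39 members were lower and 1 was higher, beside 15.1% and 4.72% of all genes compared. This comparison and the one before it share the Gr-1+ library, so their results are not independent.

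All 3 were small-subunit genes: Mrps11 (-2.37), Mrps10 (-2.16) and Mrps14 (-2.07). Each has a bacterial counterpart, but 3 genes are too few to read a pattern of subunit or origin from them. Mrps11 and Mrps10 lay under the silent-gene level in Gr-1+ cells, so their values there are not read as expression. Mrps14 was at 41.5 FPKM (DC), 43.9 (macrophages) and 9.65 (Gr-1+ cells), at the silent-gene level. Mrps23 (26.5, 18.8 and 8.45 FPKM) and Mrps16 (101, 62.1 and 29.2 FPKM) lay nearest the members' median. Of these, Mrps23 lay under the silent-gene level in Gr-1+ cells. Over the 47 members above that level the median was -1.16. The members nearest to equal levels were Mrpl17 (-0.10), Mrpl47 (-0.13) and Mrpl1 (-0.15), with levels of 9.04, 7.19 and 6.82 FPKM in Gr-1+ cells. All 3 lay under the silent-gene level there, so these near-equal values are not read as equal expression.

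Mrpl33 was the only member with a higher level in Gr-1+ cells. It encodes a small protein of the large subunit that has a bacterial counterpart. Its level was 191 FPKM (DC), 285 (macrophages) and 779 (Gr-1+ cells), the reverse of the common order. The difference was 2.02 between Gr-1+ cells and DC and 1.44 between Gr-1+ cells and macrophages. The first value only just passed the size rule, and with equal FPKM sums it was 1.65, although the direction held under every scaling.

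Taking the RefSeq transcript of 478 nt, the 3 values rest on about 454, 497 and 527 fragments for DC, macrophages and Gr-1+ cells. Exact 95% Poisson intervals of the log2 ratio of FPKM ran from 1.84 to 2.21 against DC and from 1.27 to 1.63 against macrophages. These intervals cover counting error only. The gene spans 31596935 to 31664384 on the plus strand of chromosome 5 (GRCm38) in the annotation, which lists 11 transcripts of up to 2741 nt. Its exons share 261 bases with Gm43809, a transcript annotated on the same strand and not analysed here, so the share of reads from each was not tested.

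Of 20 genes within 500 kb that reached 1 FPKM in any library, 4 had levels in the order of Mrpl33, ascending from DC over macrophages to Gr-1+ cells. Over all genes compared 32.6% did so, and over those at 10 FPKM or more 13.5%. The 4 were Fosl2 (9.24, 15.4 and 28.6 FPKM), Supt7l (8.81, 9.34 and 12.8), 4930548H24Rik (0.18, 1.56 and 6.82) and Gckr (0.18, 0.24 and 1.31), the last 2 being under the silent-gene level throughout. Rbks, the next gene of the tables, which overlaps the annotated span of Mrpl33 on the opposite strand, was at 8.69 FPKM (DC), 16.5 (macrophages) and 8.75 (Gr-1+ cells). Slc4a1ap, the gene before it, was at 14.9, 5.66 and 2.67 FPKM. All of these genes were far lower than Mrpl33 in every library.

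Mrpl33 also set the balance between the mean levels of the subunits in Gr-1+ cells. Of the members' FPKM sum it made up 4.45% (DC), 7.54% (macrophages) and 32.9% (Gr-1+ cells). The mean level of large-subunit genes was 1.0 times that of small-subunit genes in DC, 1.17 times in macrophages and 1.68 times in Gr-1+ cells. Without Mrpl33 these ratios were 0.953, 1.06 and 0.968. Ratios of median levels, Mrpl33 included, were 0.939 (DC), 0.889 (macrophages) and 1.26 (Gr-1+ cells). Without Mrpl33 the large-subunit median in Gr-1+ cells was still higher, at 12.8 FPKM beside 10.7 for the small subunit. In DC these medians were 42.9 and 46.5 FPKM, and in macrophages 32.1 and 36.5. The members' share of the whole FPKM sum in Gr-1+ cells was 0.184% without Mrpl33. These ratios lie within a library and do not depend on scaling between libraries.

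**Figure D3:**
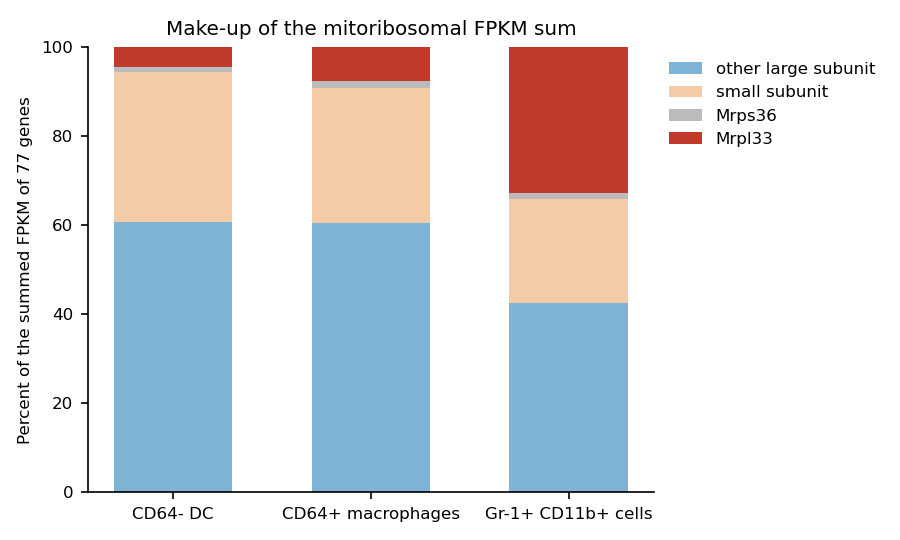
Share of the summed FPKM of the 77 genes (percent, vertical axis) held by Mrpl33, the other large-subunit genes, the small-subunit genes and Mrps36 in each library. Mrpl33 holds 4.45% (DC), 7.54% (macrophages) and 32.9% (Gr-1+ cells).

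Apart from Mrpl33 the subunits had similar differences. Without Mrpl33 the large-subunit median between DC and macrophages was 0.35, beside 0.36 for the small subunit, both on the as-deposited scale whose sign depends on scaling. Between Gr-1+ cells and DC the medians were -1.43 and -1.58, and between Gr-1+ cells and macrophages -1.01 and -1.07. Proteins with bacterial counterparts and proteins specific to mitochondria were also close. In the Gr-1+ to DC comparison the large-subunit medians were -1.34 over 30, Mrpl33 included, and -1.58 over 20 genes, and the small-subunit medians were -1.62 over 16 and -1.53 over 10. Mrps18a and Mrps18b were counted here as specific to mitochondria, although they are paralogs of a bacterial protein, as stated above.

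Other genes of mitochondrial translation were described from lists, with medians on the as-deposited scale. Most of these genes are low: in Gr-1+ cells 4 of 6 mitoribosomal proteins with other names, 13 of 14 translation factors, 18 of 24 assembly factors and 16 of 19 maintenance genes lay at or under the silent-gene level, and their values there are not read as expression. Of 7 mitoribosomal proteins with other names, 6 were in the tables, and 6 of 6 were lower in Gr-1+ cells than in DC (median -1.29). Among them Gadd45gip1, a large-subunit protein, was at 20.9 FPKM (DC), 8.72 (macrophages) and 2.33 (Gr-1+ cells), and it alone passed the size rule. Of 14 translation factors 13 were lower (median -1.20) and 0 passed. Over all genes compared 49.5% were lower in Gr-1+ cells than in DC and 6.28% passed as lower. Over the genes at 10 FPKM or more 72.0% were lower (median -0.89) and 15.4% passed. Tufm, the elongation factor that brings aminoacyl-tRNA to the ribosome, was at 54.3, 35.5 and 23 FPKM.

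The 17 mitochondrial aminoacyl-tRNA synthetases, which charge tRNAs with amino acids, had a median of -1.46 between Gr-1+ cells and DC, and 4 passed the rule as lower, where 6.28% of all genes compared did. These were Yars2 (16.9, 13.1 and 2.30 FPKM for DC, macrophages and Gr-1+ cells), Iars2, Sars2 and Hars2. Lars2, the leucine enzyme, stood far above the other synthetases in every library, at 550, 316 and 251 FPKM. In Gr-1+ cells 16 of the 17, all but Lars2, lay at or under the silent-gene level, the 4 past the rule included.

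Of 26 assembly factors of the mitoribosome, 24 were in the tables, with a median of -1.38 between Gr-1+ cells and DC. The 4 that passed as lower, 3 of them at or under the silent-gene level in Gr-1+ cells, were C1qbp (103, 55.5 and 23.6 FPKM), Mettl17, Dhx30 and Rpusd4. Over all genes compared 6.28% passed as lower, and over those at 10 FPKM or more 15.4% did. Ybey, an RNA endonuclease of the organelle, passed as higher, as 3.65% of all genes compared did, at 2.12 FPKM (DC), 5.31 (macrophages) and 15.1 (Gr-1+ cells). Of 21 genes that maintain mitochondrial DNA and RNA, 19 were in the tables, with a median of -1.70. Tfam, which packages mitochondrial DNA and starts its transcription, was at 23, 4.32 and 4.89 FPKM and passed as higher in DC in both comparisons that include DC. The genes encoded in mitochondrial DNA were not analysed here.

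The respiratory chain, which the mitochondrial ribosome serves, had another pattern between DC and macrophages. Its 77 nuclear-encoded genes had a median of 0.01 between DC and macrophages, where 40 were higher in DC and 37 in macrophages, while the ribosomal members' median was 0.35. Between Gr-1+ cells and DC the respiratory chain median was -1.16, and between Gr-1+ cells and macrophages -1.18. The members' FPKM sum without Mrpl33 was 18.9% (DC), 15.6% (macrophages) and 14.7% (Gr-1+ cells) of the respiratory chain sum. With Mrpl33 it was 19.7%, 16.9% and 21.8%, so that 1 gene set whether Gr-1+ cells were highest or lowest.

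Relative to the cytosolic ribosome the members stood highest in Gr-1+ cells and lowest in DC when no background was subtracted. The 76 cytosolic ribosomal protein genes had medians of 0.60 between DC and macrophages, -2.21 between Gr-1+ cells and DC, and -1.60 between Gr-1+ cells and macrophages. By the size rule 50 of 76 were lower in Gr-1+ cells than in DC, against 15 of 77 members. The shares were 6.28% of all genes compared and 15.4% of those at 10 FPKM or more. The median member was at 5.21% (DC), 6.49% (macrophages) and 6.93% (Gr-1+ cells) of the median cytosolic gene. By sums the share was 5.78%, 7.64% and 13.9%, and without Mrpl33 5.52%, 7.07% and 9.36%. All of these ratios had the same order, but none was taken after background subtraction, so that order is not read as robust. Many cytosolic ribosomal genes have near-identical pseudogene copies that can take reads, which makes their levels uncertain. The DC library is also the one with the B and plasma cell markers given above, and their part in these ratios was not tested. The 25 housekeeping genes had medians of -0.18, -0.97 and -0.75 in the 3 comparisons.

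**Figure D4:**
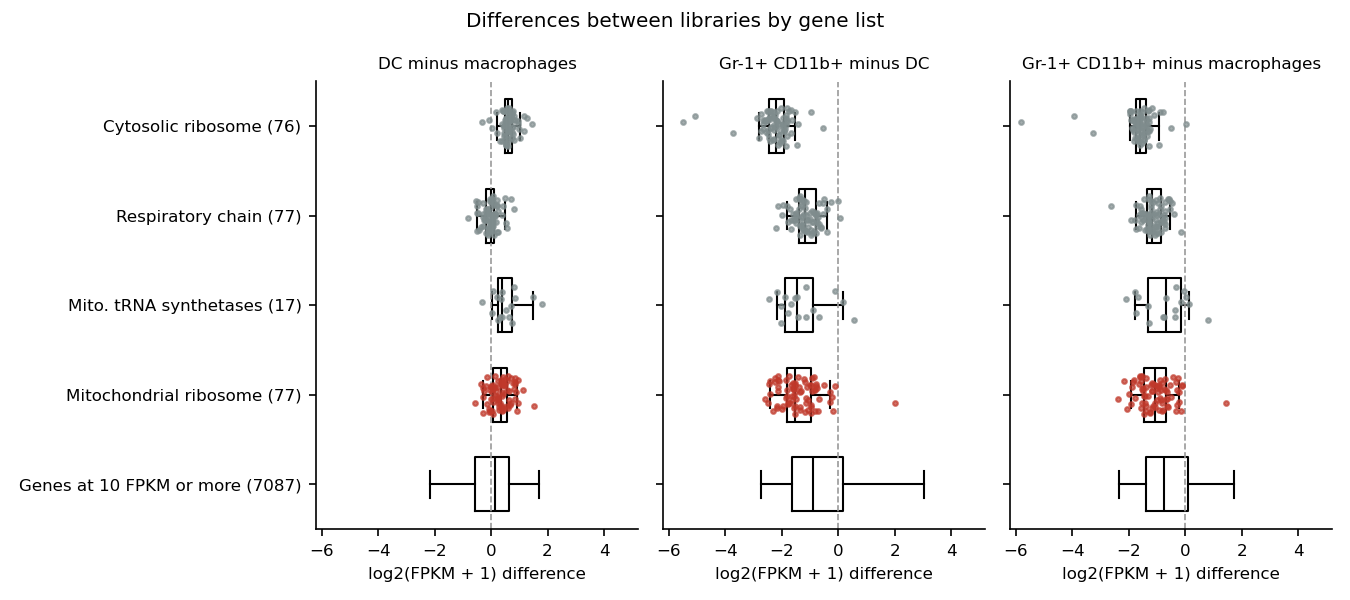
Differences of log2(FPKM + 1) for 5 gene lists in each comparison, with the number of genes in parentheses. Boxes span the quartiles with the median as a line, whiskers the 5th to 95th percentiles, and points are genes; the members' medians of 0.35, -1.51 and -1.06 lie between those of the respiratory chain and the cytosolic ribosome in the first 2 panels, and above both in the last. The first of these medians turns to -0.10 with equal 75th percentiles.

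In the genome the members were spread over 17 chromosomes, with at most 10 on 1 chromosome, chromosome 11, and none on chromosomes 12, 18, X and Y. For 18 of 77 (23.4%) another protein-coding gene started within 1000 nt on the opposite strand, facing away, against 6.78% of 21938 protein-coding genes. The share over genes at 10 FPKM or more was not counted, so 23.4% is not read as particular to the members. Mrps12, a small-subunit protein with a bacterial counterpart, starts 172 nt from Sars2, the mitochondrial serine enzyme. Mrps12 was at 89.4, 75.4 and 29.4 FPKM for DC, macrophages and Gr-1+ cells, and Sars2 at 15.3, 8.84 and 3.02 FPKM. Both followed the common order, with Sars2 lower throughout. Exons of 32 members overlap another annotated gene, for 27 of them on the opposite strand. Over the 45 members without such overlap the medians were 0.25, -1.54 and -1.14 in the 3 comparisons.

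RefSeq promoter windows of 300 bases, 250 before the start and 50 after it, were found for 68 of 77 members, with 74 windows in all. Exact motif matches were counted on both strands. The ETS motif CCGGAAG was present for 25 members (36.8%), against 12.9% of all protein-coding genes and 22.3% of those at 10 FPKM or more. The NRF1 motif GCGCATGC was present for 8 (11.8%), against 3.94% and 5.93%. ATGGCGG, a motif of the factor YY1, was present for 13 (19.1%), against 6.05% and 10.2%. The TATA motif TATAAA was present for 5 (7.35%), against 14.8% and 9.87%.

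Of the 68 members, 36 had at least 1 of the ETS, NRF1 and YY1 motifs and 32 had none. The combined share over other genes was not counted, so 36 of 68 is not read as high or low. The members' median number of CG pairs was 21.5 per window, beside 13 over protein-coding genes and 20 over those at 10 FPKM or more, so the more highly expressed genes lay nearer to the members in both motif share and CG count. A match describes letters only. Among 56 cytosolic ribosomal genes 41.1% held the ETS motif, and among 64 respiratory chain genes 17.2% held the NRF1 motif, so neither share set the members apart.

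**Figure D5:**
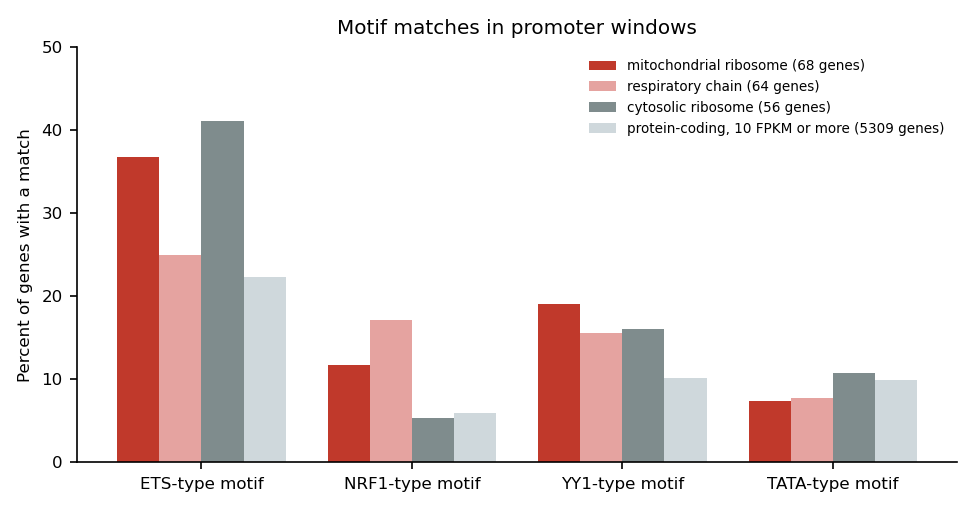
Percent of genes (vertical axis, from 0) whose RefSeq promoter window holds an exact match to each of 4 motifs, for 4 sets of genes. The members stand at 36.8% for the ETS motif, beside 22.3% of protein-coding genes at 10 FPKM or more and 41.1% of cytosolic ribosomal genes.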

How the data were processed

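Total RNA of 3 cell populations was turned into full-length cDNA (SMART-Seq HT) and Nextera libraries, per the labels' protocols. Each library has 1 table deposited by the authors, with a value per gene symbol, taken as FPKM because the submitters' processing notes list Cufflinks 2.2.1 and the file headers name no unit. TopHat2 2.0.13, Bowtie2 2.2.3, SAMtools 0.1.19 and mm10 stand in the same notes, with no role or order. The sources used here give neither annotation nor strand handling.

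FPKM was used as deposited, with a pseudocount of 1 before log2. The 17329 genes that reached 1 FPKM anywhere were compared by a size rule, a log2 difference of 2 and 10 FPKM. Members were matched to GENCODE M21 and RefSeq (GRCm38.p6), and 77 of 77 were found. Depth came from 2906 single-transcript genes: after subtracting 210 to 225 nt from the length, 74.4% to 74.8% of low values lay within 0.1 of whole fragments, where 20% would if spread evenly. Scripts were tested on simulated data. The members and gene lists were chosen with earlier results of these data known. Genes named were the 6 highest and 6 lowest members, those past the size rule (at most 8 per comparison and direction), the 4 most extreme and the 2 nearest the median per comparison, Mrps18 paralogs, Mrps30 and Mrps36, and in other lists up to 4 past the rule and the 3 highest; Mrpl22, Mrps12, Mrps28 and the neighbours of Mrpl33 were named after their values were seen. Python 3.11.15, NumPy 2.4.6, pandas 2.3.3, SciPy 1.17.1 and matplotlib 3.10.9 were used.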

Additional observations from a re-analysis of the deposited data

How the results depend on the processing

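With 1 library per population nothing measures the spread between mice, so a value was taken as stable when it moved by at most 0.1 (log2 or ratio) or a count by at most 1.5 times. No paired analysis was possible because each population has 1 library. Of the alternatives' values for the members' medians, counts, ratios and shares, 95 stayed within these limits, 33 did not and 1 changed sign. Of 792 values for single genes and list medians, 372 stayed within them and 420 did not; among all of these 40 changed sign, 30 with equal 75th percentiles, 9 with equal sums and 1 with median ratios. The DC minus macrophage median turned to -0.10 with equal 75th percentiles, and was 0.22 with a pseudocount of 10, 0.70 with equal sums, 0.18 for members over the silent-gene level in Gr-1+ cells and 0.25 without exon overlap. With a limit of 1, 2 members were higher in DC. The Gr-1+ minus DC median was -0.96 with a pseudocount of 10, -1.84 with equal sums, -0.64 with equal 75th percentiles, -1.66 after subtracting the silent-gene median and -1.39 for members over the silent-gene level. The 15 lower members became 0 with a pseudocount of 10, 27 with equal sums, 0 with equal 75th percentiles, 51 with a limit of 1 and 7 without exon overlap. The 1 higher member, Mrpl33, became 0 with a pseudocount of 10, with equal sums and when members with exon overlap, which include it, were left out. The Gr-1+ minus macrophage median was -0.76 with a pseudocount of 10, -0.65 with equal 75th percentiles and -1.24 after background subtraction. Its 3 lower members became 0, 1 and 8 under those settings, and with a limit of 1 there were 39 lower and 1 higher. Leaving out the 1 member whose longest transcript is under 600 nt, Mrps21, gave large to small ratios of mean levels of 1.18 (DC), 1.37 (macrophages) and 2.13 (Gr-1+ cells). Leaving out Mrpl33 gave 1.06 and 0.968 for macrophages and Gr-1+ cells, and member shares of 0.400% and 0.184%. The member subsets and the omission of Mrpl33 were chosen after seeing the data, and apart from fewer genes or the settings' own construction the cause was not tested. The Gr-1+ library had both the lowest depth and the highest silent-gene level, and 30 members lay at or under that level there. How far depth sets the level was not tested.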

Other observations

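The genes that start beside a ribosomal member on the opposite strand did not share 1 pattern. Of 18 such partners, 18 reached 1 FPKM in at least 1 library, and the median of log2 Gr-1+ cells minus DC over them was -0.52. In 6 of them the order was DC, then macrophages, then Gr-1+ cells, against 27.8% of all genes compared. In Gr-1+ cells 7 were highest and 10 lowest, against 43.7% and 40.5% of all genes compared. Over genes at 10 FPKM or more the shares in that order and lowest in Gr-1+ cells were 43.1% and 65.1%. Fau, which encodes a protein of the cytosolic small subunit and starts 59 nt from Mrpl49, was at 1012 FPKM (DC), 855 (macrophages) and 599 (Gr-1+ cells). Klc4, a kinesin light chain gene that starts 207 nt from Mrpl2, was at 14.5, 19.1 and 21.9 FPKM in that order, while Mrpl2 was at 62.0, 45.8 and 10.9 FPKM. The Mrpl2 and Klc4 levels thus ran in opposite orders over the 3 libraries. Psma2, a proteasome subunit gene that starts 75 nt from Mrpl32, was at 369, 382 and 148 FPKM, beside 45.4, 41.3 and 12.8 FPKM for Mrpl32. These pairs were named after their values were seen.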
